A study of Mus musculus with 3 samples.

Results

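The genes described here act in G2 phase and mitosis: mitotic cyclins and their kinases, the spindle checkpoint, the kinetochore, condensin, spindle motors, and the machinery of anaphase and cytokinesis. They were chosen by name and not by level, and all 50 were found among the 50600 genes of the deposited tables. RNA was sequenced in bulk from mouse T-helper 1 (Th1) cells, a CD4 T cell subset that makes interferon gamma and is defined by the factor T-bet. They are described as primary cells of the C57BL/6NJ strain, and the labels point to a CD4 T cell differentiation protocol. The labels name no allele or agent and give neither age nor sex, and the file headers carry a 16 hr tag whose meaning they do not state. The 3 libraries form 1 group of biological replicates whose biosample records differ and whose donor record is the same. With no other condition, levels were compared between genes within a library and set against the spread between libraries. That spread is the only error here, and it may be partly technical.

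A cell that has copied its DNA enters mitosis when cyclin B and Cdk1 become active, condensin compacts the chromosomes, and kinetochores attach them to the spindle. The spindle checkpoint holds back the anaphase-promoting complex until every chromosome is attached, after which separase opens cohesin and the cell divides. Most of these genes are transcribed late in the cell cycle under the MuvB complex with B-Myb and FoxM1, which reads a short promoter element, the cell cycle genes homology region (CHR), often beside CCAAT boxes bound by NF-Y. T cells divide rapidly after activation, and in resting lymphocytes these genes are mostly silent.

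Levels are given as counts and as TPM, counts per base of exon scaled to the same total in each library, computed from the deposited counts and gene lengths. The libraries held 2568928 to 4764598 counts in all, and a TPM of 1 stood for 1.28 to 2.25 counts per kilobase. Values in threes below are in the order of replicates 1, 2 and 3. Counting intervals and floors cover counting error only. The libraries were unlike in sex-linked RNA: Xist, the RNA of the inactive X chromosome, had 807, 1110 and 4 counts and the Y-linked Ddx3y had 161, 0 and 81, despite the shared donor record. All 12 T cell markers were detected, meaning that they reached a TPM of 1 in each of the 3 libraries. Of 6 Th1 markers, 2 were detected: Stat4 and Il12rb2, whose exons overlap Serbp1. Tbx21, the gene for T-bet, had 2, 10 and 2 counts, and Ifng, the gene for interferon gamma, had 1, 0 and 0. Of the markers of other cells, 1 of 6 myeloid and 1 of 5 CD8 and NK genes were detected, namely Csf1r, which overlaps Hmgxb3, and Cd8b1, while Lyz2 and Cd8a had 0 counts in each library. Of the B cell markers, Ighm was detected, at 106.5, 73.6 and 55.4 TPM, and Cd79b had 1, 0 and 0 counts. The B cell set is not given in full, so these genes do not settle whether B cell RNA was present.

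Of the 50 genes, 12 have exons lying within a gene of the opposite strand, and 38 are called clear. The 12 are 24.0% of the list, against 27.1% of 21764 coding genes. For 11 of the 12 the exons of both genes meet, and Bub3 lies in an intron of Fgfr2. Genes with opposite-strand exons held 56.1%, 60.3% and 71.6% of all counts. Whether the strand setting of the counting matched the library kit was not tested. If it did not, the counts of an overlapped gene may be reads of its partner and those of a clear gene may be a small remainder, so overlapped members are marked as such where they are described.

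Most G2 and mitosis genes were detected, and their median level lay above that of coding genes. Of the 50, 39 reached a TPM of 1 in every library, where 39.8% of coding genes did. Under 1 in every library were 3 members, Ccnb2, Cenpa and Hmmr, where 51.1% of coding genes were. Among clear genes, 28 of 38 members were detected against a background of 33.6%, and among overlapped members 11 of 12 against 56.7%. The median member had 8.06, 5.69 and 3.52 TPM, or 5.76 ± 2.27 (SD, n = 3). The median clear member had 4.50 ± 2.26 and the median overlapped member 14.3 ± 2.79. The median coding gene of the tables had 0.462, 0 and 0.346 TPM. In bulk RNA, the share of cells in G2 and mitosis and the amount of this RNA per cell cannot be told apart. Neither can be told apart from the small remainder that a mismatched strand setting would leave in clear genes.

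**Figure D1:**
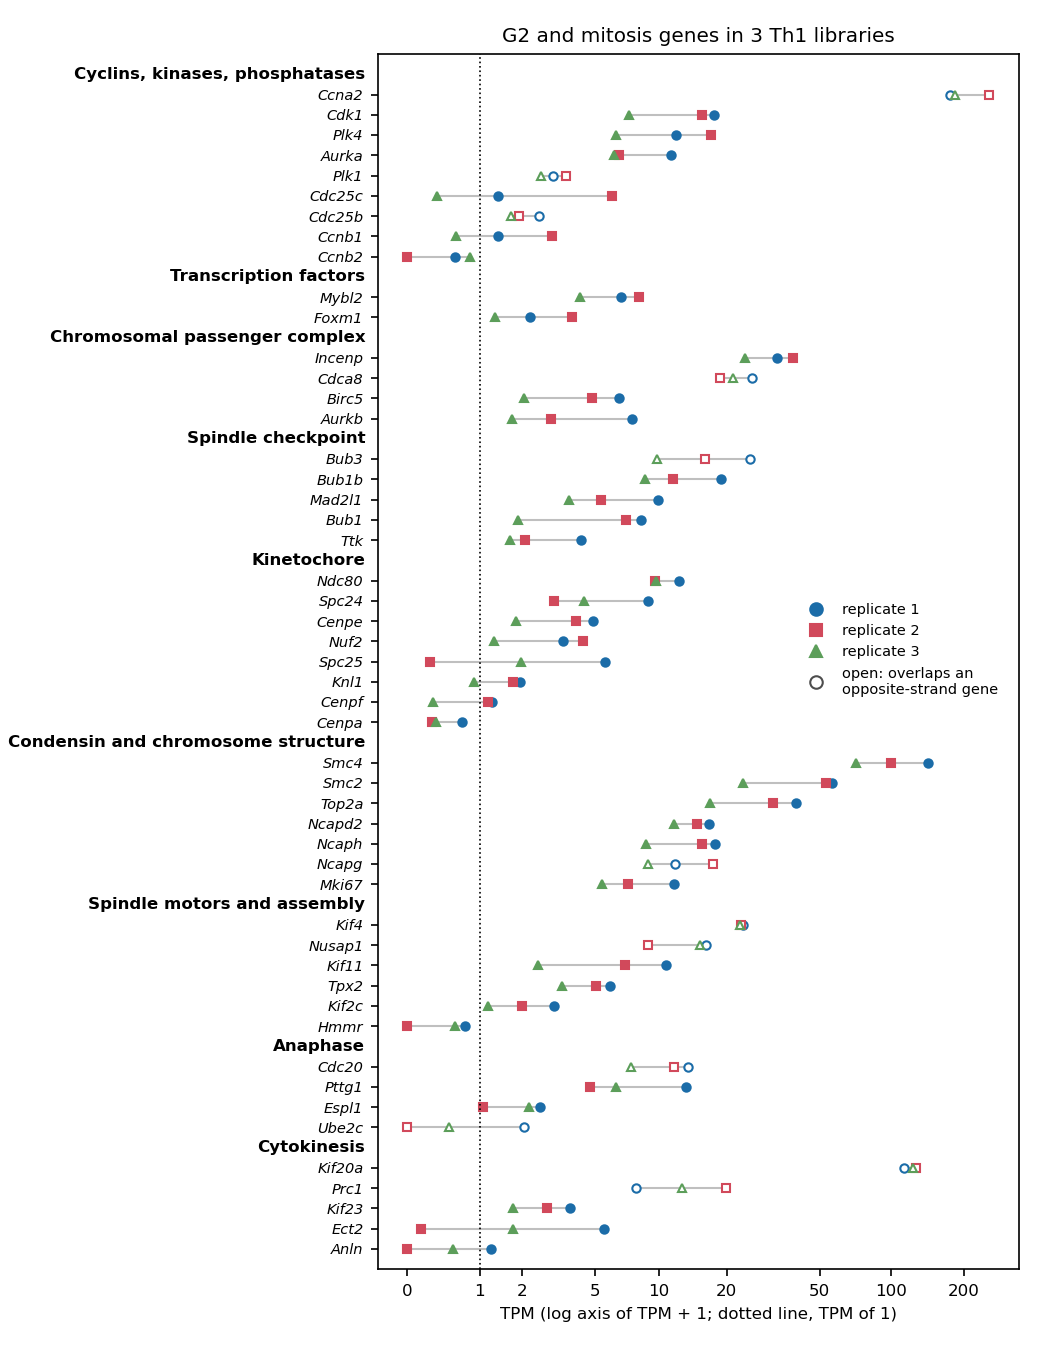
TPM of each of the 50 genes in the 3 libraries, on a log axis of TPM + 1, grouped by role; each point is 1 library, open points are genes that overlap an opposite-strand gene, and the dotted line is a TPM of 1. Smc4 and the overlapped Ccna2 and Kif20a lie above 70 TPM in every library, and Ccnb2, Cenpa and Hmmr lie under 1 in every library.

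Ranked by mean TPM, the members ran from the overlapped Ccna2 (205 TPM ± 44.1; SD, n = 3) to Cenpa (0.424 ± 0.225). Between neighbours in this order the library values overlapped in all but 2 of 49 steps. Those steps were from Ccna2, with a lowest value of 175.5, to Kif20a, also overlapped, with a highest of 126.6, and from Smc4, with a lowest of 71.3, to Smc2, with a highest of 56.4. By these ranges, which do not pair values within a library, the order of most adjacent members is not resolved. How many adjacent members kept their order within each library was not counted.

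The promoters of the members shared letters that the choice of genes did not use. A RefSeq promoter window on GRCm38.p6, from 250 bases before to 50 after the start of transcription (300 bases), was at hand for 41 of the 50. Windows were searched on both strands for the CHR letters TTTGAA or TTCGAA, the CCAAT box, and the E2F letters TTTGGCGC, TTTCCCGC or TTTCGCGC. TTCGAA reads the same on both strands, and none of these motifs contains another. A CHR match lay in 31 of 41 members (75.6%), against 19.4% of 16470 coding genes with a window. CCAAT lay in 29 (70.7%) against 42.0%, and both lay in 27 (65.9%) against 7.97%. An E2F match lay in 3 (7.32%), Cdk1, Ncapd2 and the overlapped Ncapg, against 2.81% of coding genes. Among DNA replication genes the balance was the other way, with E2F letters in 18 of 44 (40.9%) and CHR letters in 9 (20.5%). CHR letters lay in 7 of 25 G1 genes (28.0%) and in 35 of 76 other G2 and mitosis genes (46.1%). A match is a run of letters and not a measured binding site.

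The windows below are those of the 4 clear members of highest mean TPM that hold both a CHR and a CCAAT match, and they show how the letters are laid out before genes expressed at different levels. Capitals mark CHR letters (TTTGAA, its reverse TTCAAA, or TTCGAA) and CCAAT boxes (CCAAT, or ATTGG on the other strand), each read 5′ to 3′ on the strand of the gene. Smc2 lies at chr4:52438971-52439270 on the plus strand, and the other windows lie on the minus strand, Top2a at chr11:99024140-99024439, Ncapd2 at chr6:125191537-125191836 and Cdk1 at chr10:69352863-69353162.
Smc2: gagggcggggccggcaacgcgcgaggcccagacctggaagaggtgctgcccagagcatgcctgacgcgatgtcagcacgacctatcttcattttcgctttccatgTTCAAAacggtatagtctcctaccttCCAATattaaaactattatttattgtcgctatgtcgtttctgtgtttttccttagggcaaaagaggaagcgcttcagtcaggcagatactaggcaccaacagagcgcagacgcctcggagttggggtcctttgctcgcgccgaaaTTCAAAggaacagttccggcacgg
Top2a: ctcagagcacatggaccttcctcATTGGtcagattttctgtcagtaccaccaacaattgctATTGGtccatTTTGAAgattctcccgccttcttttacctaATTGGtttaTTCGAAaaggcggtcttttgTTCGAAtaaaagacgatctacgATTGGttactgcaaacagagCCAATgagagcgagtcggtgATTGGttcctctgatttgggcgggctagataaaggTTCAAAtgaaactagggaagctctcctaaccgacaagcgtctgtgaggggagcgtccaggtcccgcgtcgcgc
Ncapd2: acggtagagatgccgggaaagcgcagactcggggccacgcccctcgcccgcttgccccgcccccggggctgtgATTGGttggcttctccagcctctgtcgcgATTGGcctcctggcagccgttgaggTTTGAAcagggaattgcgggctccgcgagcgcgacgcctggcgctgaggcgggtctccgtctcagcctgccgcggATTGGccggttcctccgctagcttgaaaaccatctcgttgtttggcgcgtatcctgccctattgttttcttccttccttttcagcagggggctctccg
Cdk1: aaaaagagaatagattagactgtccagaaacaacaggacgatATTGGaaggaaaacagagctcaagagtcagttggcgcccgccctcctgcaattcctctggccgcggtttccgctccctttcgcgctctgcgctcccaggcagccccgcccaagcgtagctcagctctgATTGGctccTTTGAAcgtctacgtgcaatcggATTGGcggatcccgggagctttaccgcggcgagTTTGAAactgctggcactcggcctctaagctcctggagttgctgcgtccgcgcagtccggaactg

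In Cdk1 CHR matches began 15 and 71 bases before the start of transcription, with CCAAT boxes at 48, 80 and 208 bases before it. The window of Top2a held 4 CHR matches and 6 CCAAT boxes. In Smc2 CHR matches began at 145 bases before the start and at base 27 after it, on either side of the only CCAAT box, at 119 bases before the start. Ncapd2 had its only CHR match at 123 bases before the start and E2F letters at 8 bases before it.

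**Figure D2:**
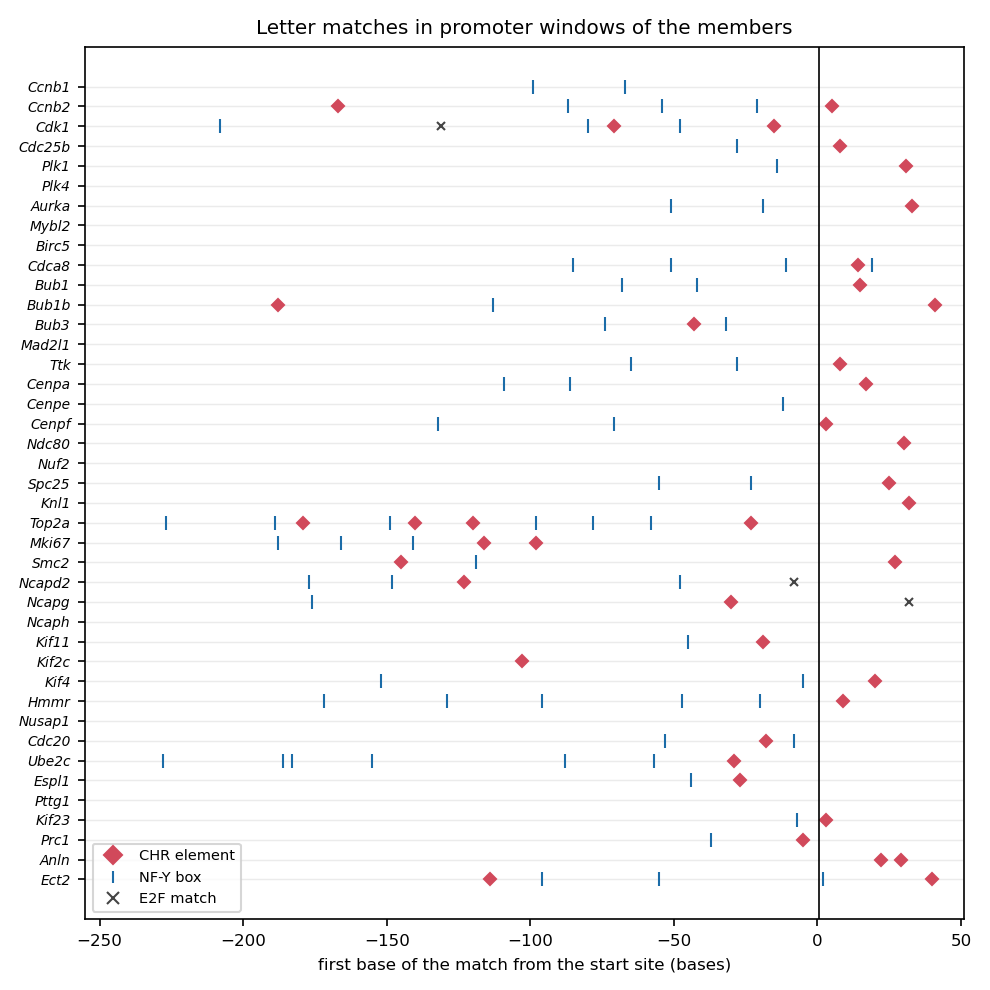
Position of the first base of each CHR, CCAAT (NF-Y box) and E2F match, in bases from the start of transcription (vertical line), in the first promoter window of each of 41 members. CHR matches gather near the start, with a median position of -5 over 41 matches, and CCAAT boxes lie upstream, with a median of -69.5 over 66.

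Within 50 bases of the start, a rule chosen after the data were seen, 28 of 41 members (68.3%) held CHR letters, against 4.94% of coding genes. The median mean TPM was 2.70 in the 22 clear members with a CHR match and 6.31 in the 9 clear members without, with ranges that overlap (0.424 to 44.3 and 1.65 to 14.1). Over all members with a window it was 5.72 in the 31 with a match and 6.33 in the 10 without. Ccnb1, Plk4, Mybl2, Birc5, Mad2l1, Cenpe, Nuf2, Ncaph, Pttg1 and the overlapped Nusap1 held no CHR letters in this window. No window was at hand for Cdc25c, Foxm1, Aurkb, Incenp, Spc24, Smc4, Tpx2 and the overlapped Ccna2 and Kif20a.

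Among the cyclins, kinases and phosphatases, the overlapped Ccna2 had the highest TPM, and the B cyclins had at most 16 counts in a library. Ccna2, cyclin A2, the partner of Cdk2 in S phase and of Cdk1 in G2, on chromosome 3 from 36564865 to 36572150 (mm10; 9 exons), had 1616, 1332 and 1193 counts. These are 175.5, 255.7 and 183.8 TPM, with replicate 2 the highest. Its exons meet those of the exosome gene Exosc9 on the other strand over 510 bases. Exosc9 had 864, 422 and 487 counts, so per kilobase Ccna2 was higher in each library (log2 ratio 1.49 ± 0.38; SD, n = 3). This ratio cannot tell reads of Ccna2 from reads of Exosc9 in the shared bases, since the strand setting was not tested.

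Ccnb1, cyclin B1, on chromosome 13 from 100778650 to 100786570, had 13, 16 and 4 counts, or 1.37, 2.97 and 0.597 TPM. Of its longest transcript 52.0% has a copy of at least 95% identity elsewhere in the annotation, the largest in Gm12856 (1293 bases, 98.1% identity, 0 counts), and multi-mapped reads were not counted. Its level is therefore uncertain. Ccnb2, cyclin B2, had 2, 0 and 2 counts, and the 0 in replicate 2 allows up to 1.54 TPM (3 counts). Over the 3 libraries Ccnb1 had 3.00 times the counts per kilobase of Ccnb2, with an exact 95% counting interval of 1.07 to 11.6. In replicate 3 the ratio pointed the other way (log2 -0.46), and the pooled ratio was 1.54 without replicate 2 and 5.26 without replicate 3.

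Cdk1, the kinase that drives entry into mitosis, on chromosome 10 from 69335146 to 69352938, had 196, 98 and 57 counts. Its level was 17.6, 15.6 and 7.27 TPM, lowest in replicate 3. The log2 ratio of Ccnb1 to Cdk1 was -3.69, -2.39 and -3.61, so the cyclin had fewer counts per kilobase than the kinase in every library. Since multi-mapped reads were not counted, the uncertain level of Ccnb1 applies to this ratio too. For Ccna2 to Cdk1 the log2 ratio was 3.32, 4.04 and 4.66, a ratio of an overlapped gene to a clear one. The exact two-sided sign-flip test gave p = 0.25 for each, the smallest value that n = 3 allows.

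Of the other kinases, Plk4, which starts centriole duplication, had 12.0, 17.2 and 6.33 TPM. Aurka, the Aurora A kinase of spindle poles, had 11.4, 6.50 and 6.21 TPM. Plk1, the Polo kinase active from mitotic entry to cytokinesis, had 15, 10 and 9 counts (3.05 TPM ± 0.496; SD, n = 3). The Plk1 values lie close together, but Plk1 overlaps Gm44985 over 156 bases. That gene had 59, 37 and 57 counts, and the log2 ratio per kilobase of Plk1 to it was -3.29 ± 0.42. The phosphatase Cdc25b, which removes the inhibitory phosphates of Cdk1 and overlaps Spef1, had 2.50, 1.89 and 1.69 TPM. Its relative Cdc25c had 6, 15 and 1 counts, or 1.37, 6.06 and 0.324 TPM. Cdc25c was high in replicate 2, and its values spread more than those of Cdc25b. A part of 23.7% of its longest transcript matches Gm3550 (623 bases, 100% identity; 3, 9 and 7 counts). Gm3550 lies on the opposite strand within the span of Cdc25c, so the match may be the same locus and not a second copy. Cdc25c is clear by its deposited exons, of 1941 bases, while that transcript has 2634. In this role 6 of 9 members were detected, with a median of 3.89 TPM ± 1.89.

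Both transcription factors were detected at low level. Mybl2 (B-Myb), which joins the MuvB complex in S phase, had 6.70, 8.12 and 4.21 TPM. Foxm1, which joins it in G2, had 2.24, 3.81 and 1.31 TPM. Foxm1 was below Mybl2 in each library, with a log2 ratio of -1.45 ± 0.32 (SD, n = 3; exact sign-flip p = 0.25). Foxm1 shares exon bases on its own strand with Tex52 and Gm44596, both at 0 counts, and 28.3% of the longest Mybl2 transcript has a copy in Gm3320.

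In the chromosomal passenger complex, which corrects attachments at centromeres, the scaffold gene Incenp and the overlapped Cdca8 were far above the kinase gene Aurkb. Birc5 was near Aurkb. Incenp, the scaffold, on chromosome 19 from 9872297 to 9899533, had 240, 158 and 123 counts, or 33.1, 38.5 and 24.0 TPM. Cdca8 (borealin), which overlaps 9930104L06Rik, had 25.6, 18.6 and 21.4 TPM. Aurkb, the Aurora B kinase, on chromosome 11 from 69045647 to 69051664, had 50, 11 and 8 counts, or 7.53, 2.93 and 1.71 TPM. Birc5 (survivin) had 50, 21 and 11 counts, or 6.52, 4.84 and 2.03 TPM. The Aurkb values did not overlap those of Incenp or Cdca8, and they overlapped those of Birc5. The log2 ratio of Aurkb to Incenp was -3.22 ± 0.94 (SD, n = 3), that to Cdca8 -2.69 ± 0.94 and that to Birc5 -0.26 ± 0.47. Pooled over libraries, Aurkb had 0.145 times the counts per kilobase of Incenp (exact 95% counting interval 0.111 to 0.186). By library the ratio was 0.227, 0.0760 and 0.0710, all outside that interval, and without replicate 1 the pooled ratio was 0.0738.

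All 5 spindle checkpoint genes were detected. Their median was 6.88 TPM ± 3.14 (SD, n = 3). Bub3, the WD-repeat protein that brings its kinase partners to kinetochores and the intronic resident of Fgfr2, had 25.3, 16.1 and 9.79 TPM, while Fgfr2 had 0 counts in each library. Bub1b (BubR1), a subunit of the checkpoint complex, had 18.9, 11.6 and 8.68 TPM. Mad2l1 (Mad2), which binds Cdc20, had 9.94, 5.33 and 3.67 TPM. All 3 of these genes were highest in replicate 1 and lowest in replicate 3. Bub1, the kinase that marks centromeric chromatin, had 81, 39 and 13 counts (8.25, 7.02 and 1.88 TPM). Ttk (Mps1), the kinase at the head of the pathway, had 47, 13 and 13 counts (4.24, 2.07 and 1.66 TPM). Bub1 was below Bub3 in each library (log2 ratio -1.73 ± 0.60), and Bub1b was nearer to it (-0.36 ± 0.16), with an exact sign-flip p = 0.25 for both.

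The kinetochore genes, all 8 of them clear, were low, with a median of 2.70 TPM ± 1.33 (SD, n = 3), and 4 of 8 were detected. Ndc80, the microtubule-binding subunit of the complex named after it, on chromosome 17 from 71496100 to 71526857, had 61, 27 and 34 counts, or 12.3, 9.62 and 9.72 TPM. Its direct partner Nuf2 had 49, 35 and 13 counts, or 3.43, 4.33 and 1.29 TPM. The values of Ndc80 lay above those of Nuf2 with no overlap, and over the libraries it had 3.62 times the counts per kilobase (exact 95% counting interval 2.75 to 4.78). Much of this ratio comes from length: the log2 ratio of 1.97 was 0.44 in counts not scaled by length. The deposited length of Ndc80 is 2201 bases, while its longest transcript in GENCODE vM21 has 3847. For Nuf2 the mismatch is the other way, with 6341 deposited bases and a longest transcript of 3888. Both levels per kilobase, and the ratio with its interval, are therefore uncertain. The other dimer of the complex was less even: Spc24 had 52, 10 and 18 counts. Spc25 had 40, 1 and 10 counts, or 5.57, 0.246 and 1.97 TPM. The pooled ratio of Spc24 to Spc25 was 1.94 (3.15 without replicate 1), and the log2 ratio was 0.69, 3.63 and 1.16 by library, with the value of replicate 2 resting on 1 count of Spc25.

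The outer kinetochore motor Cenpe (CENP-E) had 4.89, 4.00 and 1.82 TPM, and the scaffold Knl1, which recruits the Bub proteins, had 1.92, 1.74 and 0.884. Cenpf, a large protein of the outer kinetochore, had 1.24, 1.17 and 0.285 TPM. Cenpa, the histone H3 variant that marks centromeres, on chromosome 5 from 30666777 to 30674830, had 9, 2 and 3 counts. Cenpa was under 1 TPM in each library (0.681, 0.268 and 0.322).

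Condensin and chromosome structure genes were the highest role among clear genes, with a median of 22.3 TPM ± 7.36 over 6 clear members (15.7 ± 3.40 over all 7; SD, n = 3), and all 7 were detected. Smc4, an ATPase subunit shared by both condensins, on chromosome 3 from 69004738 to 69034623, had 1672, 662 and 591 counts. Its 142, 99.6 and 71.3 TPM made it the highest clear member. Smc2, the other ATPase, on chromosome 4 from 52439243 to 52488260, had 696, 370 and 206 counts, or 56.4, 52.9 and 23.7 TPM. Smc2 had 0.414 times the counts per kilobase of Smc4 over the libraries (exact 95% counting interval 0.387 to 0.442), and it was lower in each one.

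The condensin I subunits that bind this ATPase pair lay lower and close to each other. Ncapd2, a HEAT-repeat subunit, had 16.8, 14.9 and 11.7 TPM. Ncaph, the kleisin that closes the ring, had 17.8, 15.7 and 8.76 TPM. Ncapg, the other HEAT-repeat subunit, had 11.8, 17.4 and 8.90 TPM and overlaps Lcorl over 944 bases. The log2 ratio of Ncapd2 to Ncaph was 0.09 ± 0.29 and that of Ncapg to Ncaph was -0.14 ± 0.40, and neither kept its sign across the libraries. Pooled, the former ratio was 1.02, with a counting interval of 0.882 to 1.18.

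Top2a, the topoisomerase that untangles sister chromatids, on chromosome 11 from 98992943 to 99024189, had 810, 364 and 242 counts. Its level of 39.9, 31.7 and 16.9 TPM was highest in replicate 1 and lowest in replicate 3. Mki67, which encodes the Ki-67 protein on the surface of mitotic chromosomes and is the usual label of cycling cells, on chromosome 7 from 135689784 to 135716361, had 267, 92 and 86 counts. That is 11.8, 7.17 and 5.38 TPM, below every value of Top2a.

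Spindle motors and assembly factors had a median of 5.75 TPM ± 2.71 (SD, n = 3), and 5 of 6 were detected. Kif4, a chromosome-bound kinesin, had 23.6, 23.2 and 22.8 TPM, the smallest SD of log2(TPM + 1) of any member. Its exons overlap Pdzd11 over 832 bases, and Pdzd11 had 137, 55 and 67 counts. Nusap1, a microtubule-bundling protein that overlaps Oip5, had 16.3, 8.88 and 15.3 TPM. In replicate 2, the lowest for Nusap1, Oip5 had 46 counts against 18 and 8 in the others. Kif11 (Eg5), the motor that separates the poles, had 117, 43 and 19 counts, with a mean of 6.75 TPM ± 4.15 (SD, n = 3). Tpx2, which activates Aurora A, had 5.88, 5.03 and 3.36 TPM, and the log2 ratio of Aurka to Tpx2 was 0.74 ± 0.32. Kif2c (MCAK), a microtubule depolymerase, had 3.05, 1.98 and 1.15 TPM. Hmmr, a spindle-pole protein and hyaluronan receptor, had 9, 0 and 5 counts, and the 0 allows up to 0.433 TPM.

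Of the 4 anaphase genes 3 were detected. Cdc20, the activator of the anaphase-promoting complex, had 13.5, 11.8 and 7.41 TPM and overlaps Elovl1 over 53 bases. Pttg1 (securin), the inhibitor of separase, had 60, 12 and 20 counts, or 13.3, 4.70 and 6.29 TPM. Espl1, separase itself, had 38, 9 and 23 counts, or 2.54, 1.06 and 2.18 TPM. The values of Espl1 lay below those of Pttg1 with no overlap, and it had 0.230 times the counts per kilobase (exact 95% counting interval 0.166 to 0.317). The log2 ratio of -2.02 was -0.29 in counts not scaled by length. Espl1 is the longer gene, at 6630 deposited exon bases (longest transcript 6658) against 2000 for Pttg1 (1674). In replicate 3 Espl1 had more counts than Pttg1, but fewer per kilobase. Ube2c, the ubiquitin-conjugating enzyme of the complex, had 12, 0 and 2 counts. It overlaps Tnnc2 over 592 bases, and Tnnc2 had 0 counts in each library.

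Among cytokinesis genes, 2 overlapped ones were high and 3 clear ones were low, with a median of 1.87 TPM ± 1.78 (SD, n = 3). Kif20a, a kinesin of the central spindle, had 961, 613 and 741 counts, or 112, 127 and 123 TPM. Its exons meet Cdc23, an anaphase-promoting complex subunit gene, over 1259 bases. Cdc23 had 523, 310 and 332 counts, and per kilobase Kif20a was higher by a log2 ratio of 2.33 ± 0.14 (SD, n = 3). As for Ccna2 and Exosc9, the ratio cannot tell whose reads lie in the shared bases. Prc1, which bundles central spindle microtubules, had 7.87, 19.8 and 12.8 TPM and lies wholly within Rccd1. Kif23, the motor of centralspindlin, had 3.71, 2.78 and 1.75 TPM. Ect2, which activates RhoA at the cell equator, had 67, 1 and 15 counts, or 5.52, 0.146 and 1.75 TPM. Anln (anillin), the scaffold of the contractile ring, had 25, 0 and 8 counts, and the 0 allows up to 0.259 TPM.

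The overlapped members did not stand in 1 relation to their partners. Per kilobase, Cdca8, Kif20a and Ccna2 were above the partner in every library, and Cdc20, Cdc25b and Plk1 were below it in every library. Ncapg, Prc1, Kif4 and Nusap1 changed side between libraries. The log2 ratio of Cdca8 to 9930104L06Rik was 2.51 ± 0.42 and that of Cdc25b to Spef1 was -1.98 ± 0.45 (SD, n = 3).

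**Figure D3:**
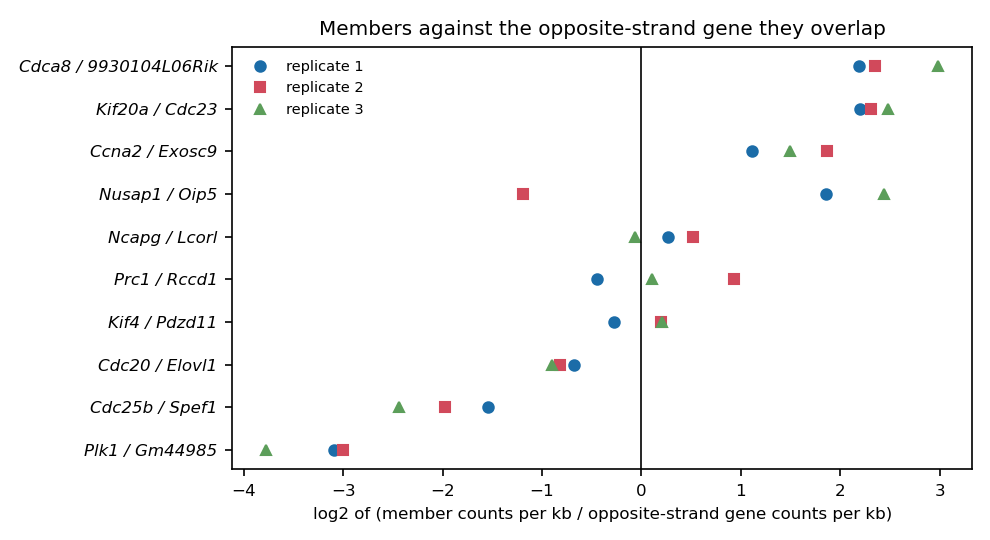
Log2 ratio of counts per kilobase of each overlapped member to the opposite-strand gene it overlaps, 1 point per library; partners with 0 counts (Fgfr2, Tnnc2) are left out. Ratios run from -3.29 for Plk1 to 2.51 for Cdca8 as means of 3 libraries.

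Across the 17 pairs of partners in a complex or reaction, 12 kept the sign of their log2 ratio in all 3 libraries. Each of these 12 had an exact two-sided sign-flip p = 0.25 and a Benjamini-Hochberg adjusted p = 0.354 over the 17 pairs, so no pair could pass a threshold of 0.05 with 3 libraries. Of 11 pairs of clear genes, 8 kept their sign. Ratios within a library do not depend on its scaling, but they do depend on gene length as deposited. Subunits known to act in equal number were unequal in counts per kilobase for Smc2 and Smc4, also in counts not scaled by length (log2 -1.21), and not resolved from equal for Ncapd2 and Ncaph.

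**Figure D4:**
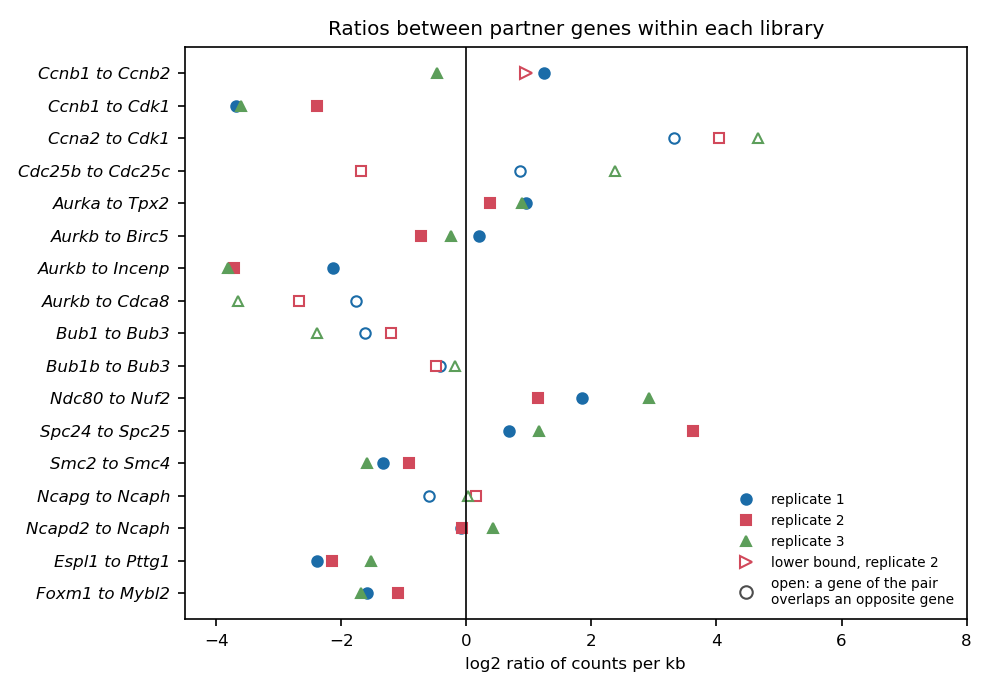
Log2 ratio of counts per kilobase between partner genes within each library, 1 point per library; open points mark pairs with an overlapped gene, and the open arrowhead is a lower bound where Ccnb2 had 0 counts. Aurkb to Incenp and Ccnb1 to Cdk1 lie below -2 in every library, and Ndc80 to Nuf2 lies above 1.

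Compared with other cell-cycle genes, the G2 and mitosis list was low. The median log2(TPM + 1) of the 50 lay under that of 54 DNA replication genes in each library, with differences of -2.27, -2.28 and -2.21. The mean difference was -2.25 ± 0.04 (SD, n = 3), or 4.77-fold lower on this scale, and over clear genes with TPM recomputed on clear genes alone it was -2.77 ± 0.26. Of the replication genes 53 of 54 were detected, with a median of 31.4 TPM ± 11.5, led by Mcm3 (233 ± 84.1), a subunit of the replicative helicase, and Pcna (227 ± 99.2), the sliding clamp. Against 33 genes of the G1 machinery the difference was -0.87 ± 0.15, and -1.09 ± 0.28 over clear genes. Of these 26 were detected, and the highest clear ones were Tfdp1 (80.6 TPM ± 25.4) and E2f4 (70.0 ± 22.9), which pair in G1 to bind E2F sites. Of all these medians none carries a test, since the lists were chosen by name with earlier results of these data known.

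**Figure D5:**
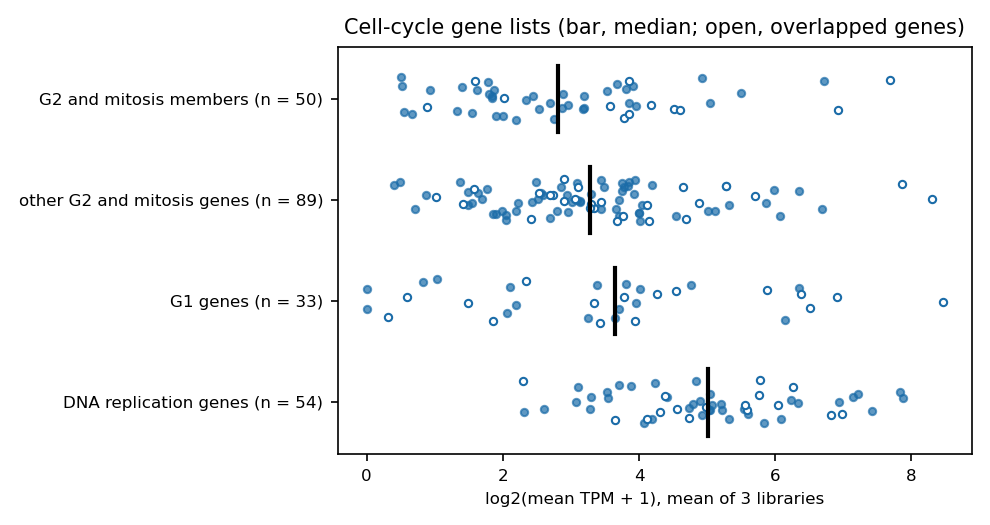
Mean level of each gene over the 3 libraries, as log2(mean TPM + 1), for the 50 members, 89 other G2 and mitosis genes, 33 G1 genes and 54 DNA replication genes; bars are medians and open points are overlapped genes. The bar of the members lies lowest and that of the DNA replication genes highest.

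A longer list of 89 other G2 and mitosis genes gave a slightly higher level. Of these 75 were detected and 3 were under 1 TPM in every library, with a median of 8.14 TPM ± 3.11 (SD, n = 3). The members lay below it, with differences of -0.43, -0.45 and -0.42 on the log2 scale, and over clear genes the difference was -0.87 ± 0.27. The highest clear genes of that list were the cohesin genes Smc1a (103 TPM ± 29.4), Rad21 (66.3 ± 27.0) and Smc3 (57.0 ± 15.5), the Aurora A cofactor gene Bora (80.9 ± 34.6) and the Cdk-binding gene Cks1b (62.5 ± 29.8). Cohesin also holds sister chromatids outside mitosis. The lowest were Depdc1a, Aspm, Kif14, Cit, Kif18a and Spag5, genes of spindle poles, chromosome motors and cytokinesis. Aspm had 24, 1 and 4 counts and Kif14 had 19, 9 and 7.

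Most members were highest in replicate 1, as were most coding genes, and the share was larger for the members. It was larger still for the DNA replication genes, at 44 of 54 (81.5%). Of 38 clear replication genes it was 65.8% with TPM recomputed on clear genes. In TPM, 37 of 50 were highest in replicate 1 and 34 were lowest in replicate 3, that is 74.0% and 68.0%, against 57.0% and 67.5% of the 9932 coding genes whose mean TPM was 1 or more. The median deviation from a gene's mean log2(TPM + 1) was 0.32, 0.05 and -0.40 over the members and 0.32, 0.11 and -0.41 over those coding genes. With TPM recomputed on clear genes the members' deviations were 0.23, -0.10 and -0.08, against 0.11, -0.06 and -0.02, and 63.2% of 38 clear members were highest in replicate 1 against 38.4% of clear coding genes. With TMM scaling they were 0.11, -0.04 and -0.11, against 0.08, 0.00 and -0.08. The median SD of log2(TPM + 1) was 0.506 over the members and 0.524 over the coding genes. In the range of log2 levels that held the middle 24 members, it was 0.528 for those members and 0.545 for 4353 coding genes. The median biological coefficient of variation from edgeR was 0.317 over the 35 members with enough counts and 0.305 over coding genes.

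Large spread between libraries was as frequent among the members as among coding genes. Of the 44 members whose mean TPM was 1 or more, Cdc25c, Spc25 and Ect2 had an SD above 1, which is 6.82% against 7.50% of coding genes. Spc25, Ect2 and Anln had at least 20 counts in replicate 1 and at most 1 in replicate 2, a rule chosen after the data were seen. They are 3 of 43 members with 20 counts in replicate 1 (6.98%), against 2.60% of coding genes, a count too small to set the members apart. No member with 20 counts in replicate 1 was that low in replicate 3, where 0.0992% of coding genes were. Replicate 2 also had 430 genes with exactly 1 count, against 1912 and 1888 in replicates 1 and 3, and the part of this in the low values of Spc25, Ect2 and Anln was not tested. Without replicate 2, 41 members were detected in both other libraries.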

How the data were processed

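Total RNA-seq counts of 3 Th1 libraries, 1 group, were analysed; the labels point to a library protocol named for poly(A) RNA. The authors deposited whole-number counts per gene with exon lengths in bases, counted, per the file headers, by featureCounts v1.4.6-p4 from read pairs with strand setting 1 over GENCODE vM13 exons on mm10, with no multi-mapped reads. Neither the kit nor the aligner's version is given in the sources used here. Symbols were matched for 50376 of 50600 identifiers from GENCODE vM21. TPM was computed here from counts and lengths, with a pseudocount of 1 on log scales. For a count of 0 the floor was 3 counts, and intervals are exact binomial at 95%. A gene is clear when no exon lies within an opposite-strand gene. Copies of transcripts (at least 100 bases, 95% identity) were sought with BLAST+ 2.17.0. Dispersion came from edgeR 4.0.16 (TMM, filterByExpr, intercept alone), with DESeq2 1.42.0 as an alternative, both under R 4.3.3; medians over members are given. Other values used SciPy 1.17.1, pandas 2.3.3 and numpy 2.4.6 under Python 3.11.15.

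The result of 1 marker gene is not reported here. The members and lists were chosen with earlier results of these data known. All members may be named; of other G2 and mitosis genes the 5 highest clear and 6 lowest, of DNA replication and G1 genes the 2 highest clear, the partners of overlapped members, and the promoters of the 4 highest clear members with CHR and CCAAT matches. Alternatives were other thresholds, pseudocounts, scalings, gene sets and statistics, and each replicate left out; distance of 5 kb to an opposite gene and exon overlap alone were added after the data were seen.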

Additional observations from a re-analysis of the deposited data

How the results depend on the processing

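Where a value below moved, the cause was not tested. At a TPM of 5 in every library 21 of 50 members were detected, and 17 of the 22 that lie over 5 kb from an opposite-strand gene were detected at 1. The median member, at 5.76 TPM, was at 11.7 when TPM was computed over coding genes and at 16.6 over clear genes, where fewer genes share the same total; for clear members these were 9.04 and 16.6. The median SD of 0.506 was 0.312 with TMM scaling and 0.305 with DESeq2 scaling. The difference from DNA replication genes was -2.44 with a pseudocount of 0.1, -2.77 over clear genes, -1.93 over genes whose mean TPM was 1 or more and -2.06 between means. That from G1 genes was -1.09 over clear genes and -0.57 between means. The median coefficient of variation of members was 0.432 without a filter, 0.280 over clear genes, 0.221 by DESeq2's gene-wise dispersion and from 0.305 to 0.349 when each replicate was left out. The other 40 values of these and the remaining list results under alternatives moved by less than the spread between libraries (for measures of spread, between members) or, for counts, by less than 1.5 times.

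Among 17 pair ratios, 80 alternative values kept the sign and 5 turned it. Counts not scaled by length gave -0.15 for Aurka to Tpx2 and 0.58 for Ncapg to Ncaph. With a replicate left out, Cdc25b to Cdc25c ran from -0.41 (without replicate 3) to 1.62, Ncapg to Ncaph from -0.29 to 0.088 (without replicate 1), and Ncapd2 to Ncaph from -0.080 (without replicate 3) to 0.17. No paired analysis was possible because there is 1 group. Depth limits the members under 10 counts in a library, 15 of 50.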

Other observations

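The loss of counts in replicate 2 seen in Spc25, Ect2 and Anln was also present in 4 of 83 other G2 and mitosis genes with at least 20 counts in replicate 1 (4.82%), beside 2.60% of coding genes. Anapc10, a subunit of the anaphase-promoting complex, had 69, 0 and 20 counts in replicates 1, 2 and 3. Kif18b, a mitotic kinesin that lies within an opposite-strand gene, had 23, 0 and 12. Spag5 (astrin), a spindle and kinetochore protein, had 49, 1 and 7, and Aspm, a spindle-pole protein, had 24, 1 and 4. All 4 were picked with their values in view, and no cause was tested.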
